A study of Mus musculus with 6 samples.

Results

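The receptors described here sense neuropeptides tied to stress and mood: the corticotropin-releasing hormone receptor Crhr1, the neuropeptide Y receptors Npy1r, Npy2r and Npy5r, the neurokinin B receptor Tacr3, the somatostatin receptors Sstr1 to Sstr4 and the oxytocin receptor Oxtr. They were chosen as 10 named genes, and every probe set that names 1 of them and no other gene was taken, 18 of the 45101 on the array. Their messengers were measured on tagged ribosomes from the cortex of untreated mice of 2 lines, 3 biological replicates each, with 1 array per replicate. In the S100a10 line (ES691) a bacterial artificial chromosome with the control regions of S100a10 places the ribosome tag, and in the Glt25d2 line (DU9) those of Glt25d2, the older name of Colgalt2, which encodes an enzyme that adds galactose to collagen. Both lines had been crossed from FVB to C57BL/6 for 3 to 5 generations. Each driver is represented by a single line, the S100a10 transgene also marks some cells that are not neurons by the series text, and the sources used here give neither age nor sex. The replicates are called biological, and no source used here says whether each came from its own animals, so p-values measure the spread between these samples only. The lines stand for different classes of pyramidal neurons, which the study set out to compare.

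All of these proteins sit in the cell membrane and signal through G proteins. Crhr1 couples mainly to Gs and raises cyclic AMP when corticotropin-releasing hormone is released under stress. The neuropeptide Y and somatostatin receptors couple to Gi and Go, lower cyclic AMP and open potassium channels, so their peptides, released in the cortex by interneurons, damp the cells that carry them. Tacr3 and Oxtr couple mainly to Gq and phospholipase C.

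Promoter sequences are shown for the 3 receptors that differed between the lines in every fit, and for Npy5r, which lies next to Npy1r in the gene table and is read from the opposite strand, with 9328 bases between the start sites. Each is the 250 bases before the start site, written 5′ to 3′ on the gene's strand, from RefSeq promoter entries of GRCm38.p6. Capitals mark 3 motifs that were searched: TATAAA on the gene's strand, and GGGCGG (a GC box) and TGACG (the core of a cyclic AMP response element) on both strands.
Crhr1, chr11:104132531-104132780, plus strand: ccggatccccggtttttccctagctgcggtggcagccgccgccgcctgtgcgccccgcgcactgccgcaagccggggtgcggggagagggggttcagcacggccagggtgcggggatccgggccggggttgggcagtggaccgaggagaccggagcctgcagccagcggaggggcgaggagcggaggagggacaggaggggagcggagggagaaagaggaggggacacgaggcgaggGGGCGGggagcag
Tacr3, chr3:134828757-134829006, plus strand: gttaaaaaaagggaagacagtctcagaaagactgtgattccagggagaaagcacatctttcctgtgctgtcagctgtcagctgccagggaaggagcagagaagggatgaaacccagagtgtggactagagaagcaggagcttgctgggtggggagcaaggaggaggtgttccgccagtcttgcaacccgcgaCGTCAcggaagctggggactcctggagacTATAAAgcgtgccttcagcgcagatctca
Npy1r, chr8:66697172-66697421, plus strand: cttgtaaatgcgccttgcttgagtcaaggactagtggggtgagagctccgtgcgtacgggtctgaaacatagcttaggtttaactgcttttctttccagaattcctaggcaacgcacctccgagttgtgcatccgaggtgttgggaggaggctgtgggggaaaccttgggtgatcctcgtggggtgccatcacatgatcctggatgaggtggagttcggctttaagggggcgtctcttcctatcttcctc
Npy5r, chr8:66688095-66688344, minus strand: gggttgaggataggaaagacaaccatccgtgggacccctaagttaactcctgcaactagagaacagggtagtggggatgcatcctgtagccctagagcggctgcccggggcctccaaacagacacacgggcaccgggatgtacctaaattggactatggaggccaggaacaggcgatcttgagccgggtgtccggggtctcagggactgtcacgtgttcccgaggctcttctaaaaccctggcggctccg
The Crhr1 window holds GGGCGG, beginning 13 bases before the start, and is 74.8% G and C, against a median of 52.4% and a 95th percentile of 73.6% over all 32851 promoter entries. The Tacr3 window holds TATAAA at 29 bases before the start and CGTCA, the reverse complement of TGACG, at 58. The Npy1r and Npy5r windows hold none of the 3 motifs and are 53.6% and 58.8% G and C. TATAAA occurs in 7.59% of all promoter entries, GGGCGG or its reverse complement in 32.7% and TGACG or its reverse complement in 17.8%. The 3 receptors that were higher in S100a10 arrays thus share none of these motifs in this window, which says nothing of the factors that may bind elsewhere. RefSeq promoters were found for 9 of the 10 receptors, all but Sstr1.

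The driver genes followed the labels. S100a10 was higher in S100a10 arrays, by 2.25 on the log2 scale (SE 0.14, limma adjusted p = 1.07e-04), and Colgalt2 was at least 21.1-fold higher in Glt25d2 arrays. Colgalt2 lay under 50 in every S100a10 array and entered the test only through the Glt25d2 line, so no p-value is given for it. Every log2 difference here is S100a10 minus Glt25d2, and an adjusted p under 0.05 counts as passing. Intensities had a median of 20.4 to 21.3 in the Glt25d2 arrays and of 35.5 to 35.8 in S100a10 arrays, and having 3 arrays a line limits precision. The median gene accordingly differed by 0.56 as deposited and by -0.018 after quantile normalization of the 6 arrays, so each receptor's difference is also given after that step. Glt25d2 replicate 3 was low for some genes, and all 8 receptors that could be tested were among them. In that array they lay at 0.142 to 0.435 of the mean of Glt25d2 replicates 1 and 2, each over 2-fold below it, as 14.6% of all 11821 genes tested were. Values without that array are therefore given for each receptor. A bulk pull-down cannot tell fewer cells of a type from less messenger per cell.

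**Figure D1:**
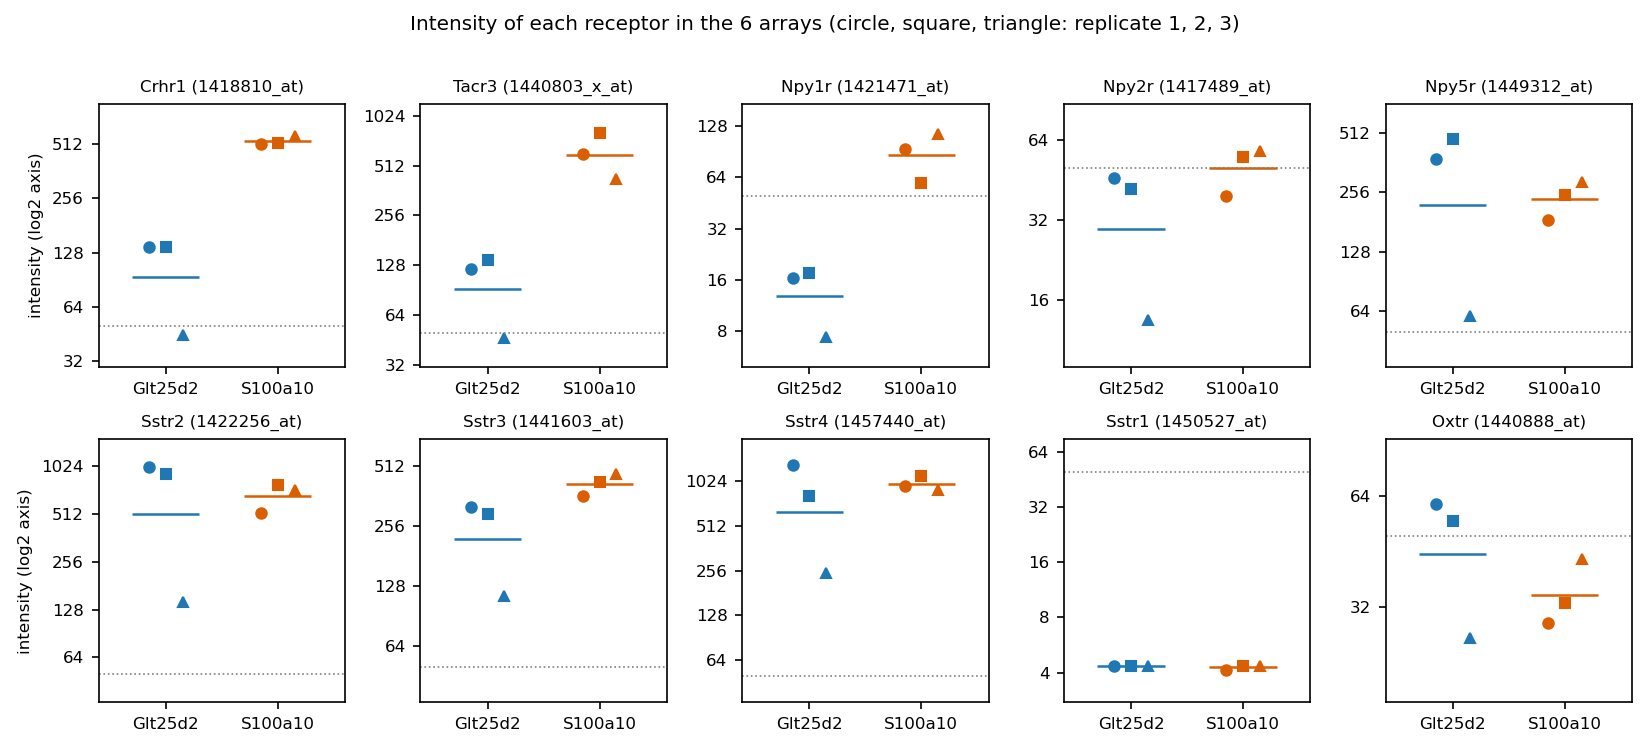
Intensity (log2 axis) of each receptor in the 3 Glt25d2 (blue) and 3 S100a10 (orange) arrays; circles, squares and triangles are replicates 1, 2 and 3, bars are geometric means, and the dotted line is 50. Crhr1, Tacr3, Npy1r and Sstr3 are the tested receptors whose lines do not overlap, and the Glt25d2 triangle is the lowest Glt25d2 point in every panel but Sstr1.

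Crhr1, Tacr3 and Npy1r were higher in S100a10 than in Glt25d2 arrays. Crhr1, through which corticotropin-releasing hormone acts, had intensities of 137, 137 and 44.6 in Glt25d2 replicates 1, 2 and 3 and of 508, 518 and 566 in S100a10 replicates 1, 2 and 3. The lowest S100a10 array lay above the highest Glt25d2 array, and the S100a10 arrays stood close together. The means were 106 ± 53.3 and 531 ± 31.3 (SD, n = 3 each), which is 5.62-fold on the fitted scale, or 2.49 in log2 (SE 0.46, limma adjusted p = 0.00656). It was 1.74 after quantile normalization (limma adjusted p = 0.0150), 1.95 without Glt25d2 replicate 3 (limma adjusted p = 1.75e-05) and 1.26 with both steps (limma adjusted p = 2.67e-04). A second Crhr1 probe set, 1427782_a_at, read 12 in every Glt25d2 array and 50.0, 65.1 and 71.0 in S100a10 arrays. As all its Glt25d2 values lay under 50, the limit the series text proposes for low values, it gives only a bound, at least 1.23-fold higher in S100a10 arrays.

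Tacr3, the receptor of neurokinin B, had intensities of 122, 137 and 46.5 in the Glt25d2 arrays and of 601, 803 and 423 in the S100a10 arrays. The lines did not overlap, and the S100a10 arrays spread more than for Crhr1, with replicate 3 the lowest. The means were 102 ± 48.4 and 609 ± 190 (SD, n = 3 each), which is 6.41-fold on the fitted scale, or 2.68 in log2 (SE 0.48, limma adjusted p = 0.00571). The difference was 1.94 after quantile normalization (limma adjusted p = 0.0136), 2.19 without Glt25d2 replicate 3 (limma adjusted p = 3.75e-04) and 1.50 with both (limma adjusted p = 0.00352). The name of this probe set, 1440803_x_at, marks probes that may also bind other transcripts. The probe set 1437029_at does not carry that mark and moved the same way. It read 17.2, 17.2 and 7.67 in Glt25d2 arrays and 144, 128 and 94.2 in S100a10 arrays, at least 2.41-fold higher. A further probe set, 1450278_at, lay between 9.78 and 15.6 in all arrays, under 50 throughout.

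The neuropeptide Y receptors did not follow a common pattern. Npy1r, a receptor on the cells that neuropeptide Y acts on, had intensities of 16.3, 17.4 and 7.33 in Glt25d2 arrays and of 94.1, 59.5 and 115 in S100a10 arrays. Every S100a10 array lay above 50 and every Glt25d2 array below it, so Npy1r entered the test only through the line where it is high. The fitted log2 difference was 2.76 (SE 0.42), or 0.79 with values under 50 set to 50. As the Glt25d2 values are at background level, the level is best given as at least 1.73-fold higher in S100a10 arrays. That bound holds for the deposited scaling. The fitted difference was 2.06 after quantile normalization, 2.36 without Glt25d2 replicate 3 and 1.62 with both. Because of how Npy1r entered the test, no p-value is given. A second probe set, 1426054_at, stayed between 4.26 and 5.67 in all arrays and carries no measurable level.

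Npy5r, which neuropeptide Y also activates, had 375, 476 and 60.3 in Glt25d2 arrays and 184, 248 and 287 in S100a10 arrays. Glt25d2 replicates 1 and 2 lay above all S100a10 arrays and Glt25d2 replicate 3 below them. With all arrays the log2 difference was 0.094 (SE 0.81, 95% interval -1.91 to 2.10, limma adjusted p = 0.929), an interval that spans large differences either way, and after quantile normalization it was -0.71 (limma adjusted p = 0.473). Without Glt25d2 replicate 3 Npy5r was lower in S100a10 arrays, by -0.84 as deposited (SE 0.21, limma adjusted p = 0.0115) and by -1.48 after quantile normalization (limma adjusted p = 0.00209). Its other probe set, 1419008_at, lay nearer to background, at 42.6, 76.6 and 22.1 against 59.6, 54.0 and 69.1, and differed by 0.085 without that array (limma adjusted p = 0.794), or by -0.76 after quantile normalization as well (limma adjusted p = 0.0426). With all arrays it differed by 0.54 (limma adjusted p = 0.355), the sign of the brighter probe set. Without Glt25d2 replicate 3 only the brighter probe set passed at the deposited scaling, and both passed, in the same direction, after quantile normalization.

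Npy2r, known as a receptor on nerve endings that limits release, was close to background in both lines. It read 46.0, 41.9 and 13.5 in Glt25d2 arrays and 39.3, 55.0 and 58.1 in S100a10 arrays, which overlap. It passed the limit on low values only through a S100a10 mean of 50.8, and its log2 difference was 0.76 (SE 0.50, limma adjusted p = 0.257). The sign turned after quantile normalization, to -0.032, and without Glt25d2 replicate 3 as well Npy2r was lower in S100a10 arrays, by -0.66 (limma adjusted p = 0.0239).

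Of the somatostatin receptors, none passed the test with all 6 arrays. Sstr2, a receptor that inhibits neurons and secretory cells, had 1009, 913 and 143 in Glt25d2 arrays and 520, 777 and 720 in S100a10 arrays. As for Npy5r, Glt25d2 replicates 1 and 2 were above every S100a10 array and replicate 3 was below. The log2 difference was 0.38 with all arrays (SE 0.79, 95% interval -1.57 to 2.33, limma adjusted p = 0.702) and -0.27 after quantile normalization, where it did not pass either. Without Glt25d2 replicate 3 it was -0.53 (SE 0.19, limma adjusted p = 0.0439), or -1.06 after quantile normalization as well (limma adjusted p = 0.00547), so Sstr2 was lower in S100a10 arrays in both of these fits.

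Sstr3, a somatostatin receptor found on neuronal cilia, had 319, 293 and 114 in Glt25d2 arrays and 359, 426 and 463 in S100a10 arrays. The lines did not overlap, but the log2 difference of 0.91 (SE 0.42) did not pass (limma adjusted p = 0.121), nor did the 0.17 found after quantile normalization (limma adjusted p = 0.736). It passed without Glt25d2 replicate 3, at 0.44 (limma adjusted p = 0.0350), and took a value of -0.21 (limma adjusted p = 0.316) when quantile normalization was added, so no direction of Sstr3 held across the scalings. Its other probe set, 1450577_at, lay between 4.01 and 4.65. Sstr4 had 1301, 807 and 245 in Glt25d2 arrays and 945, 1111 and 895 in S100a10 arrays, which overlap. Its log2 difference was 0.62 (SE 0.61, limma adjusted p = 0.425), or 0.044 after quantile normalization, and without Glt25d2 replicate 3 it was -0.065 (95% interval -0.58 to 0.45, limma adjusted p = 0.811), or -0.56 with both steps (limma adjusted p = 0.0703). The second Sstr4 probe set, 1422281_at, and the only Sstr1 probe set, 1450527_at, lay between 3.64 and 4.87 in all arrays, so Sstr1 has no measured level here.

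Oxtr, the oxytocin receptor, did not pass the limit on low values with all arrays, as its group means were under 50. Its brighter probe set, 1440888_at, read 61.1, 54.8 and 26.3 in Glt25d2 arrays and 28.9, 32.9 and 43.3 in S100a10 arrays. Only Glt25d2 replicates 1 and 2 reached 50, and no S100a10 array did. Without Glt25d2 replicate 3 the gene passed the limit, with a Glt25d2 mean of 57.9, and lay at least 1.16-fold higher in Glt25d2 arrays at the deposited scaling. Its entry into that fit rests on the group where it is high, so no test is given and it is left out of the counts that follow. The other probe set, 1426000_at, stayed between 5.72 and 6.33.

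Counted together, 3 of the 8 tested receptors were higher in S100a10 arrays, 0 were lower and 5 did not pass, beside 44.7% of all genes tested higher and 4.59% lower. After quantile normalization 3 of 8 were higher and 0 lower, beside 18.7% and 19% of all genes. The 3 were Crhr1, Npy1r and Tacr3 in both fits, and Npy1r is tested only because it is high in S100a10 arrays, so its call adds no support of its own. Crhr1 and Tacr3 passed in all 14 alternative fits, with the lowest log2 differences at 1.26 and 1.50; Npy1r did too, under the limit just named. Without Glt25d2 replicate 3, 4 of the same 8 were higher (those 3 and Sstr3) and 2 lower (Npy5r and Sstr2), beside 55.9% and 6.33% of all genes. With both steps 3 were higher and 3 lower, Npy2r now among the lower and Sstr3 no longer among the higher, beside 24.2% and 23.5% of all genes. Arrays of the lines did not overlap for 4 of the 8, all higher in S100a10 arrays, beside 55.9% of all genes higher and 7.9% lower. Leaving out Glt25d2 replicate 3, this held for 4 higher and 2 lower of the 8, beside 66.6% and 11.1%. The share of receptors called higher lay below that of all genes as deposited, and the counts over so few receptors were not tested against those of all genes.

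**Figure D2:**
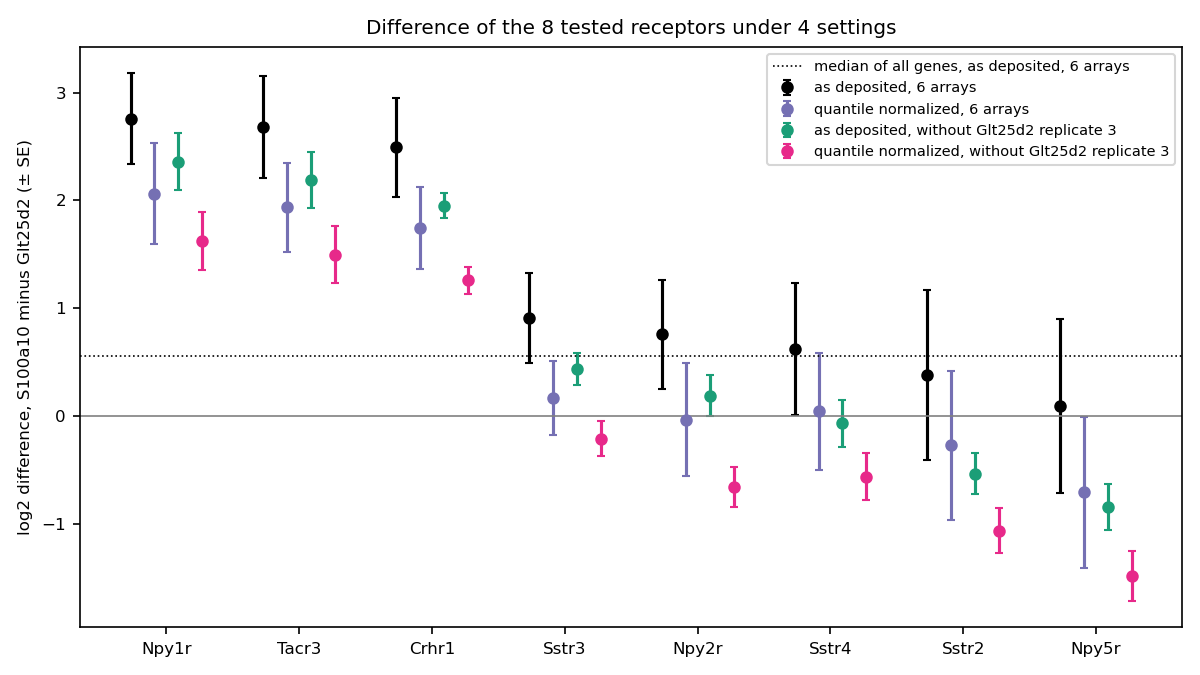
Log2 difference (S100a10 minus Glt25d2, ± SE of the limma fit) of the 8 tested receptors under 4 settings; the dotted line is the median gene as deposited. Npy1r, Tacr3 and Crhr1 lie between 1.26 and 2.76 in all 4, while the values of Npy5r run from 0.094 to -1.48.

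The receptors were also compared with each other within each array, where a step that shifts the whole array drops out. This comparison was added after the values were seen. For each of the 28 pairs of tested receptors, the log2 ratio within an array was set between the lines. In 15 pairs the S100a10 and Glt25d2 arrays did not overlap, and these were the 15 pairs of Crhr1, Npy1r or Tacr3 with Npy2r, Npy5r, Sstr2, Sstr3 or Sstr4; all 15 also did not overlap after quantile normalization, when 2 further pairs joined them, Npy2r with Npy5r and Npy5r with Sstr2. The ratio of Npy5r to Tacr3, both above 50 on every array but Tacr3 on Glt25d2 replicate 3, had a mean of 1.27 ± 0.78 in Glt25d2 arrays and -1.32 ± 0.66 in S100a10 arrays (log2, SD, n = 3 each), which differ by -2.59. The ratio of Crhr1 to Sstr2 differed by 2.11 and that of Tacr3 to Sstr2 by 2.30. The 5 ratios with Npy1r rest on Glt25d2 values under 50, so no size is given for them. The ratio of Crhr1 to Tacr3 differed by -0.19, and the arrays of this and of the other ratios among Crhr1, Npy1r and Tacr3 overlapped. An exact permutation test over the arrays, 2-sided, gave p = 0.1 for each of the 15 pairs, or 0.187 adjusted over the 28 pairs. As 0.1 is the smallest that 3 against 3 arrays allow, no pair could pass. These pairs set the 3 receptors already called higher against the 5 not called, so they add no support of their own. Pairs with Npy1r or Npy2r also rest on genes that entered the test only through S100a10 arrays. The background is high: the ratio of Crhr1 to another gene did not overlap and was higher in S100a10 arrays for 84.9% of all other genes tested, of Npy1r for 83.7% and of Tacr3 for 83.6%.

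**Figure D3:**
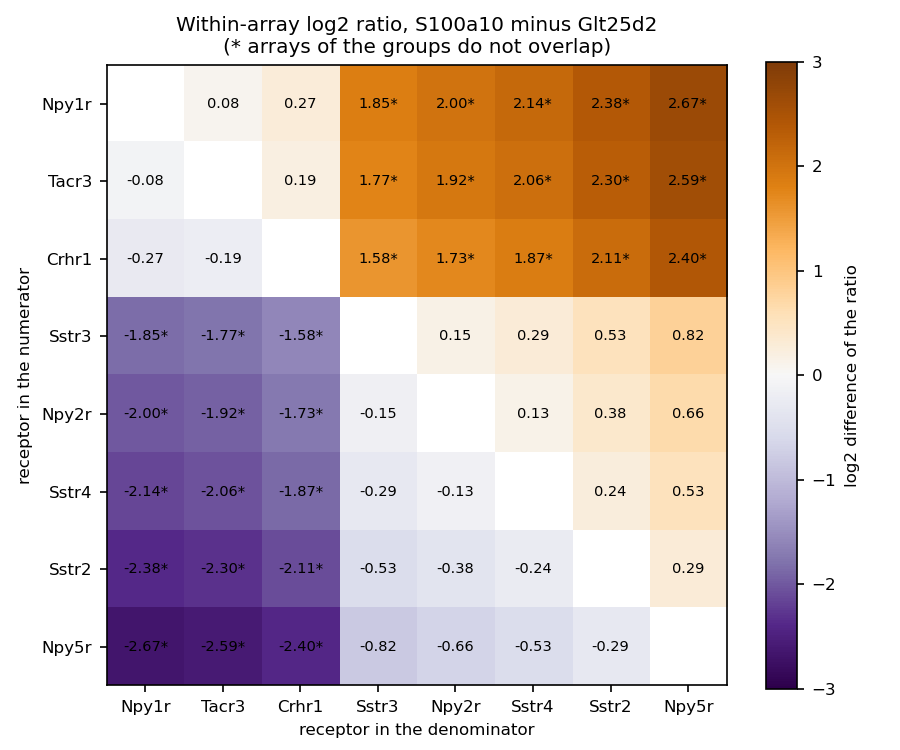
Difference between the lines (S100a10 minus Glt25d2) of the within-array log2 ratio of the receptor in the row to that in the column; stars mark pairs whose arrays do not overlap. All 15 pairs of Npy1r, Tacr3 or Crhr1 over another receptor carry a star, and no pair within either set does as deposited. Sizes with Npy1r or Npy2r rest on Glt25d2 values under 50.

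**Figure D4:**
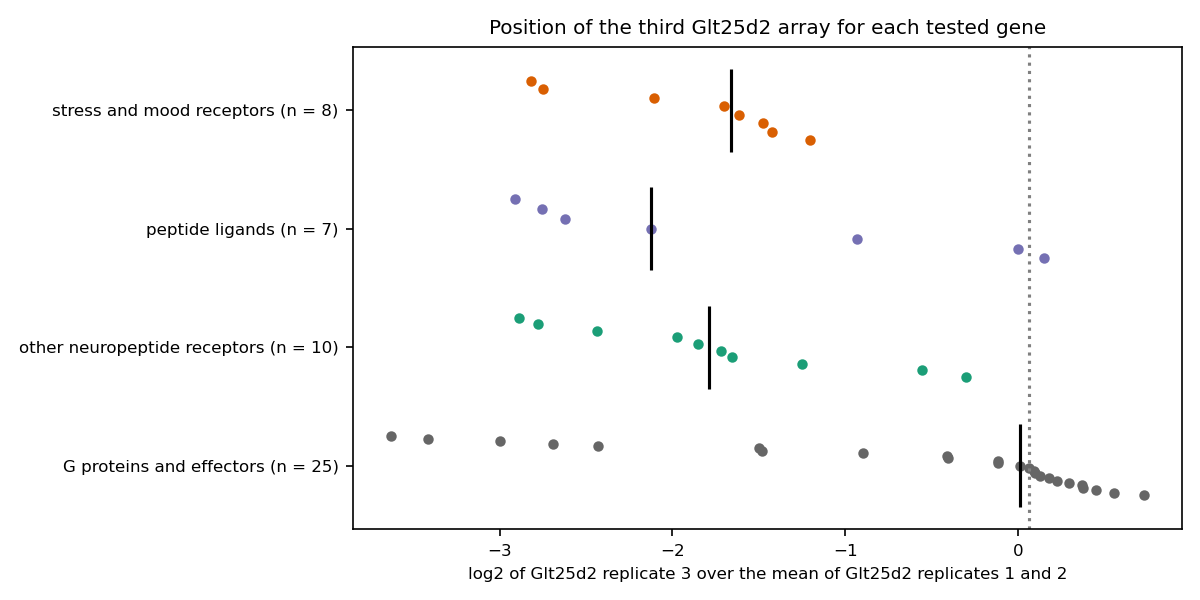
Log2 of Glt25d2 replicate 3 over the mean of Glt25d2 replicates 1 and 2, 1 point per tested gene and a bar at each list's median; the dotted line is the median of all genes tested. All 8 stress and mood receptors lie left of -1, as do 7 of the 25 G proteins and effectors, whose median is 0.010.

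Glt25d2 replicate 3 was not low to the same extent for each receptor. Npy5r and Sstr2 were lowest there, at 0.142 and 0.149 of the mean of the other Glt25d2 arrays, Sstr4 was at 0.233, and Npy1r, which was near background already, at 0.435. A level over 4-fold below that mean was seen for 3 of the 8, beside 8.43% of all genes tested. Among 10 other neuropeptide receptors 8 were over 2-fold down in that array, and among 25 G proteins and effectors 7 were, beside 14.6% of all genes tested. Those 7 were Adcy1, Adcy2, Adcy3, Adcy5, Adcy8, Adcy9 and Kcnj9. Of 7 peptide genes 4 were over 4-fold down, Crh, Npy, Tac1 and Sst. The low level in this array was thus not particular to the receptors. The part of this array in the differences of Npy5r, Sstr2 and Sstr4 is the gap between the values given with and without it; its cause was not tested.

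The peptides that act on these receptors were measured in the same arrays, as 7 of 13 listed genes passed the limit on low values. Of these 5 were higher in S100a10 arrays and 0 lower, with 3 and 0 after quantile normalization, beside the 44.7% and 4.59% of all genes, or 18.7% and 19% after that step. Tac2, Cort and Oxt had Glt25d2 means under 50. They entered the test only through S100a10 arrays, so their calls add no support of their own. Npy, which encodes neuropeptide Y, read 434, 512 and 77 in Glt25d2 arrays and 2053, 3130 and 3556 in S100a10 arrays, which do not overlap. It differed by 3.46 (SE 0.76, limma adjusted p = 0.0127), or by 2.89 after quantile normalization and 2.59 without Glt25d2 replicate 3, and did not pass without S100a10 replicate 2 or 3 (limma adjusted p = 0.0522 and 0.0553). Tac2, the gene of neurokinin B, the ligand of Tacr3, read 13.8, 13.8 and 7.27 against 119, 115 and 114. It was at least 2.32-fold higher in S100a10 arrays at the deposited scaling, with a fitted difference of 2.69 after quantile normalization. It passed the limit on low values only because it is high there, so no p-value is given. Tac2 and Tacr3 thus both read higher in S100a10 arrays, where 44.7% of all genes were called higher as deposited. As Tac2 entered only through that line, a link between the levels of ligand and receptor was not tested.

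Sst, the somatostatin gene, read 437, 595 and 76.6 against 1619, 1788 and 2752 and differed by 2.88 (SE 0.80, limma adjusted p = 0.0285). It was 2.29 after quantile normalization (limma adjusted p = 0.0446). It did not pass after median centring or when any single S100a10 array was left out (limma adjusted p = 0.0783, 0.0815 and 0.101 without replicates 1, 2 and 3), and was 1.97 without Glt25d2 replicate 3. Crh, the gene of corticotropin-releasing hormone, read 1195, 1871 and 204 against 804, 1322 and 1135, which overlap, and did not pass (0.47, SE 0.84, limma adjusted p = 0.661; -0.49 without Glt25d2 replicate 3). Tac1, the gene of substance P, differed by 0.29 (SE 0.64, limma adjusted p = 0.725). Cort, the cortistatin gene, at 0.53 and Oxt, the oxytocin gene, at 0.70 passed near background as deposited and turned to -0.40 and -0.25 after quantile normalization, so no direction is given for them. Ucn, Ucn2, Ucn3, Pyy, Ppy and Avp stayed under the limit on low values.

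**Figure D5:**
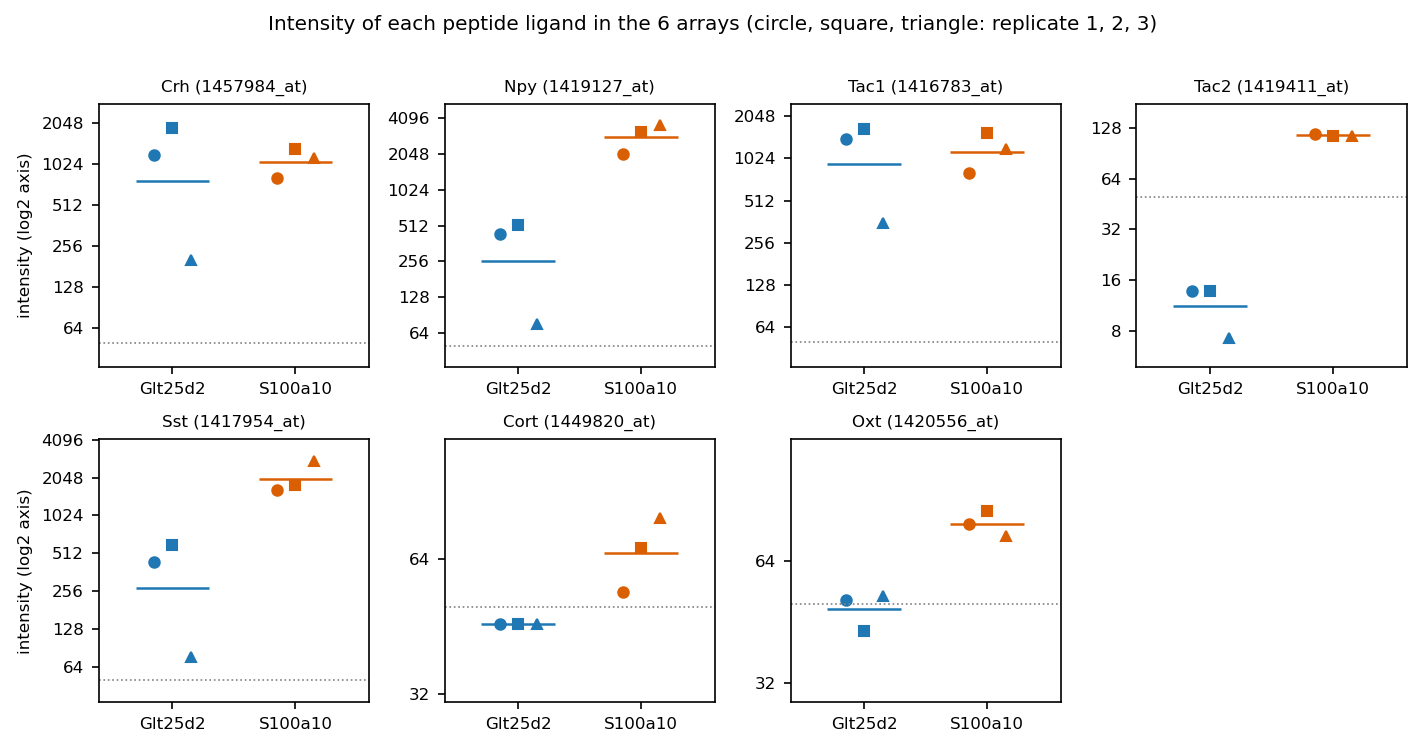
Intensity (log2 axis) of the 7 tested peptide genes in the 3 Glt25d2 (blue) and 3 S100a10 (orange) arrays, with replicates as circles, squares and triangles, geometric means as bars and 50 as a dotted line. Npy, Tac2 and Sst do not overlap between the lines, while Crh and Tac1 do.

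Other neuropeptide receptors gave few calls as deposited. Of 36 with a probe set 10 could be tested. Of these 2 were higher in S100a10 arrays and 0 lower, beside 44.7% and 4.59% of all genes. Their median differed by 0.39, below the 0.56 of all genes. Calcrl, the receptor partner for adrenomedullin and calcitonin gene-related peptide, read 134, 137 and 124 in S100a10 arrays and under 50 in every Glt25d2 array. It was at least 2.63-fold higher at the deposited scaling, and was also called higher after quantile normalization, at 1.53. Kiss1r, the kisspeptin receptor, was at least 1.95-fold higher at the deposited scaling, but differed by 0.26 after quantile normalization and did not pass there. Kiss1r too lay under 50 in every Glt25d2 array. Both entered the test only through the line where they are high, so their calls add no support of their own. After quantile normalization the counts were 1 higher and 1 lower, beside 18.7% and 19% of all genes. Without Glt25d2 replicate 3 they were 3 and 3, beside 55.9% and 6.33%. With both steps they were 1 and 6, beside 24.2% and 23.5%. These counts were not tested against those of all genes. Trhr, the receptor of thyrotropin-releasing hormone, was the gene called lower after quantile normalization, at -1.62 (limma adjusted p = 0.0389).

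Among the G proteins, cyclases, phospholipases, channels and regulators these receptors use, 12 of 25 tested genes were higher in S100a10 arrays, 2 lower and 11 did not pass, or 6 and 3 after quantile normalization. The 48% called higher is close to the 44.7% of all genes, of which 4.59% were lower. After quantile normalization 18.7% of all genes were higher and 19% lower. Plcb3, a phospholipase C that Gq activates, was at least 3.46-fold higher in S100a10 arrays at the deposited scaling. Its Glt25d2 values all lay under 50, so it was tested only through the line where it is high. The call of Plcb3 therefore adds no support of its own. Plcb4, another such phospholipase, was lower, with a mean of 1441 ± 86.5 against 3168 ± 313 (SD, n = 3 each). Its log2 difference was -1.13 (SE 0.11, limma adjusted p = 6.24e-04). Of the Gi subunits, Gnai2 differed by 1.82 (SE 0.18, limma adjusted p = 5.31e-04) and Gnai1 by -0.43 (SE 0.085, limma adjusted p = 0.00827). Grk5, a kinase that silences active receptors, differed by 1.96 and Adcy5, an adenylyl cyclase, by 1.85, Adcy5 not passing without S100a10 replicate 2 or 3 (limma adjusted p = 0.0700 and 0.0633). After quantile normalization the differences were 1.79 for Plcb3, -1.52 for Plcb4, 1.43 for Gnai2, -0.60 for Gnai1, 1.09 for Grk5 and 1.35 for Adcy5, and all 6 passed. Adcy5 did not pass after median centring, at 1.08 (limma adjusted p = 0.0860). Crhbp, which encodes a secreted protein that binds corticotropin-releasing hormone and was picked here after its value was seen, differed by 1.64 (SE 0.30, limma adjusted p = 0.00661) and by 0.91 after quantile normalization, where it did not pass (limma adjusted p = 0.0629).

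Markers of other cell types were read against the 44.7% of all genes higher and 4.59% lower as deposited. Of 9 interneuron markers tested 4 were higher in S100a10 arrays (Lhx6, Dlx1, Npy and Sst) and 1, Pvalb, was lower, while the γ-aminobutyric acid synthesis genes Gad1 and Gad2 differed by 0.14 and 0.39, or by -0.055 and -0.20 after quantile normalization, and did not pass. The summed level of the 9 was 12773 to 18866 in Glt25d2 and 18051 to 23038 in S100a10 arrays. Gad1 alone read 8838 to 13434 and 11749 to 14661. All sums here are of intensities as deposited, so the brightest genes weigh most and the difference in scaling between the lines enters. They are not measures of cell number. Of 7 mural cell and fibroblast markers 6 were higher in S100a10 arrays, with sums of 695 to 877 and 7276 to 9253, and 4 of the 7 were under 50 in every Glt25d2 array. Those 4, Pdgfrb, Myl9, Col1a2 and Lum, entered the test only through the line where they are high, so their calls add no support. The same holds for Olig2 and Tmem119, the markers called higher in the oligodendrocyte and microglial lists. Of 5 excitatory neuron markers 3 were higher (sums 9200 to 11517 and 14923 to 15628). Of 7 astrocyte markers 2 were higher, Aldh1l1 and Gjb6, and 2 lower, Gfap and Aldoc (9350 to 16424 and 16957 to 22534). Gjb6 differed by 6.26, Aldh1l1 by 2.23 and Aldoc by -1.07, or by 5.75, 1.67 and -1.31 after quantile normalization. Gfap lay under 50 in every S100a10 array and entered only through the Glt25d2 line. Of 6 oligodendrocyte markers 1 was higher and 2 lower (17427 to 23620 and 9048 to 15432). Of 4 microglial markers 1 was higher (292 to 470 and 504 to 798), of 2 endothelial markers 1 was lower (160 to 562 and 118 to 126), and of 4 general neuronal markers 2 were higher (59120 to 64180 and 81333 to 82547). As deposited the interneuron share lies at that of all genes. Lhx6, Dlx1, Npy and Sst also passed after quantile normalization, beside 18.7% of all genes higher, and Pvalb stayed lower, beside 19%. Slc32a1 did not overlap and was higher, but did not pass as deposited (limma adjusted p = 0.104). It passed without Glt25d2 replicate 3 (limma adjusted p = 0.00941), and not after quantile normalization as well (limma adjusted p = 0.129). The mural and fibroblast share, 6 of 7, was the highest of these lists as deposited, under the limit named above. The part of these cells in the differences of Crhr1, Tacr3, Npy1r and the peptides was not tested.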

How the data were processed

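Ribosome-bound RNA from 6 samples was amplified in 2 cycles from 15 ng, labelled with biotin and hybridised to Affymetrix arrays, per the labels. The authors deposited linear intensities made with GCRMA (submitters' processing notes), whose version and annotation build are not stated there. The design text speaks of averaged replicates, yet values are deposited for each of the 6 arrays and were used as such. It also advises keeping to a supplementary list of probe sets, which was not used here. Array quantiles differ between the lines (mean distance of sorted log2 values 0.447 to 0.508) and hardly within them (0.0174 to 0.0811). Equal values in at least 2 Glt25d2 arrays were held by 46.8% of probe sets, which understates their spread.

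The 64 control probe sets were dropped, and genes were named only from the 34945 probe sets with 1 symbol in the platform annotation. No pseudocount was added before log2. A probe set stayed in when either line averaged 50 or more, the brightest stood for its gene, and limma 3.58.1 (R 4.3.3) fitted 11821 genes (lmFit and eBayes, 2-sided, Benjamini-Hochberg, threshold 0.05). Where every array of a line lay under 50, a bound against 50 is given from the geometric mean of the other line. Statements on further probe sets of a gene come from such a fit over 21291 probe sets. The receptors and gene lists were chosen with earlier results of these data known. Named genes are the 10 receptors, tested ligands, up to 4 genes per direction with the largest differences in the other lists, members of counts of 5 or fewer, and the drivers. Other names were picked after their values were seen.

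Same-numbered samples did not deviate together (correlations of deviations -0.49, 0.27 and -0.26 for numbers 1, 2 and 3), so no pairing was used. On simulated data for the comparison of the lines over 11821 genes, 28 of 50 genes changed 2-fold and 43 of 50 changed 4-fold were called with the right sign. The settings varied were the filter, a pseudocount (16), a floor (50), quantile normalization, median centring, a replicate block, averaging the probe sets of a gene, leaving out each array, and quantile normalization without Glt25d2 replicate 3. Promoters came from RefSeq (GRCm38.p6); protein sequences were not used here. Tables and plots were made in Python 3.11.15 with numpy 2.4.6, pandas 2.3.3 and matplotlib 3.10.9.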

Additional observations from a re-analysis of the deposited data

How the results depend on the processing

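Crhr1 and Tacr3 kept their direction and stayed past the threshold in all 14 alternatives, as did Npy1r, which is tested only because it is high in S100a10 arrays. The count of receptors higher in S100a10 arrays was 3 or 4 throughout. That of receptors lower was 0 as deposited, 0 to 3 with single arrays left out, and 4 after quantile normalization without Glt25d2 replicate 3; the 3 and the 4 include Oxtr, which passes the filter there through the line where it is high. Same-numbered samples are not pairs, and the replicate block left 3 receptors higher and 0 lower, beside 35.7% and 2.77% of all genes. It also left 3 peptides higher, and 10 G proteins and effectors higher and 1 lower.

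After quantile normalization the sign turned for Npy2r (-0.032), Npy5r (-0.71, and -0.31 for its probe set 1419008_at), Sstr2 (-0.27), Crh (-0.092), Tac1 (-0.23), Cort (-0.40) and Oxt (-0.25). After median centring it turned for Npy2r (-0.011), Npy5r (-0.67), Sstr2 (-0.39), Sstr4 (-0.15), Crh (-0.30), Tac1 (-0.48), Cort (-0.24) and Oxt (-0.073). Without Glt25d2 replicate 3 it turned for Npy5r (-0.84), Sstr2 (-0.53), Sstr4 (-0.065), Crh (-0.49) and Tac1 (-0.42), and without S100a10 replicate 3 for Npy5r (-0.047). With single arrays left out the differences ran from -0.84 to 0.65 for Npy5r, -0.53 to 0.88 for Sstr2, -0.065 to 1.14 for Sstr4, -0.49 to 1.11 for Crh and -0.42 to 0.70 for Tac1. With quantile normalization and without Glt25d2 replicate 3 it turned for Npy2r (-0.66), Npy5r (-1.48, and -0.76 for 1419008_at), Sstr2 (-1.06), Sstr3 (-0.21), Sstr4 (-0.56), Crh (-0.94), Tac1 (-0.86), Cort (-0.34) and Oxt (-0.13). None of these genes other than Cort and Oxt had passed as deposited, and the cause was not tested.

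Peptides higher in S100a10 arrays numbered 9 without a filter (1 lower), 3 after quantile normalization, 2 after centring, 2 to 5 with an array left out, and 3 with 2 lower after quantile normalization without Glt25d2 replicate 3. Other neuropeptide receptors gave 11 higher and 5 lower without a filter, where more genes are tested, 1 and 1 after quantile normalization, 1 higher after centring, 2 to 3 higher and 0 to 3 lower with an array left out, and 1 and 6 with quantile normalization without Glt25d2 replicate 3. G proteins and effectors gave 6 higher after quantile normalization, 3 higher and 8 lower after centring, 8 to 14 higher and 2 to 3 lower with an array left out, and 5 lower with quantile normalization without Glt25d2 replicate 3. Of all genes called, 90.7% were higher in S100a10 arrays as deposited and 49.6% after quantile normalization. Of all genes tested, 45.9% were higher and 9.04% lower without a filter, and 16.6% and 31.8% after centring. With an array left out 36.1% to 55.9% were higher and 3.12% to 6.33% lower.

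Values near or under 50 (Npy1r in Glt25d2 arrays, Npy2r, Oxtr, Cort and Oxt) lie at or close to background and limit what these arrays show for them.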
